A study of Mus musculus with 49 samples.

Results

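The genes described here are 35 genes of glucose uptake, glycolysis, lactate handling and the HIF-1 response, chosen by name and read from every table of messenger RNA abundance in a mouse study of ELF4, a transcription factor of the ETS family. They are 35 of 24213 gene names listed across the 5 tables. All 35 were listed in 4 tables and 34 in the fifth, where Hk3 was not listed. The set was chosen with earlier results of these data known, so its counts beside the shares of all genes are a description. Abundance was given as CPM, reads scaled to a common library total, in 43 RNA libraries, and 6 further libraries measured open chromatin by ATAC-seq, which reads the DNA that a transposase can reach. All mice were C57BL/6.

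Macrophages were grown from wild-type (WT) or Elf4 KO bone marrow for 7 days with M-CSF, the growth factor that drives macrophage development, and were taken at 0 h without treatment, or at 4 h or 16 h of 100 ng/ml LPS, a bacterial cell wall component that activates TLR4, with 3 libraries a group. Naive CD4 T cells, which have not met antigen, came as 3 WT and 4 KO-labelled libraries, and in a separate table as 3 WT libraries and 3 from mice with the Elf4 W250S allele. Th17 cells, the interleukin-17-producing helper T cells, were made from WT or Elf4 W250S cells in 48 h cultures, 3 libraries a group. The pathogenic kind received IL-1b, IL-23 and IL-6, and the non-pathogenic kind TGF-beta plus IL-6. The open chromatin libraries were of naive CD4 T cells, 3 WT and 3 KO-labelled. The labels do not say which part of Elf4 the KO lacks, nor for every library that it came from an animal of its own, so p-values measure the spread between these libraries.

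Glycolysis turns glucose into pyruvate in a chain of cytosolic steps, and lactate dehydrogenase can turn the pyruvate into lactate, which leaves the cell through monocarboxylate carriers. HIF-1 is a transcription factor whose alpha subunit is hydroxylated and destroyed when oxygen is present, and which raises transcription of most glycolytic genes when it is stable. Macrophages given LPS and T cells that start to divide are both textbook cases of a switch to glycolysis, in the first through HIF-1 even in normal oxygen.

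Elf4 in the KO macrophages stood at 20.9%, 25.0% and 22.4% of the WT mean at 0, 4 and 16 h, and the groups did not overlap. In the KO-labelled naive T cells it stood at 99.2% of WT, so those libraries are called KO-labelled throughout. In W250S cells it stood at 112.7% of WT in naive, 106.8% in pathogenic Th17 and 112.6% in non-pathogenic Th17 cells. All 7 macrophage markers were above 1 CPM in every macrophage group, and all 7 CD4 T cell markers in every T cell group. The 9 stromal markers, genes of fibroblasts and matrix, summed to 487 to 868 CPM in WT and 671 to 2158 CPM in KO macrophages at 0 h, to 356 to 632 and 491 to 1632 CPM at 4 h, and to 567 to 1045 and 967 to 2982 CPM at 16 h, with the highest sum in KO replicate 2 each time. In bulk libraries like these, fewer cells of a type and less RNA per cell cannot be told apart. The value steps of the macrophage table gave depths of 11.5 to 16.8 M (mega) reads, and the depth of the T cell libraries is unknown.

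LPS first lowered the share of most glycolytic messages in WT macrophages and later raised it. At 4 h, 10 of the 35 genes had risen and 22 had fallen at an adjusted p below 0.05 (limma, Benjamini-Hochberg over 12058 genes), when 15.6% of all genes had risen and 71.3% had fallen, 86.8% together. At 16 h, 22 had risen over 0 h and 8 had fallen, when 18.3% of all genes had risen and 56.5% had fallen, 74.8% together. The members' median log2 change was -0.70 at 4 h, against -0.81 over all genes, and 0.86 at 16 h, against -0.41 over all genes. Both medians over all genes lay below 0. With each library divided by its median ratio to the others, the medians of all genes came to -0.02 and 0.00, and 14 members were higher and 11 lower at 4 h, 25 higher and 5 lower at 16 h. Over all genes that scaling changed 1876 higher and 8593 lower to 4291 and 4458 at 4 h, and 2203 and 6818 to 4045 and 4045 at 16 h. The sign turned with the scaling for 10 members at 4 h, Pfkl, Aldoa, Aldoc, Gapdh, Pgk1, Eno1, Pkm, Ldha, Slc16a3 and Higd1a, and for Pdk1 and Bnip3l at 16 h.

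Hif1a, which encodes the oxygen-regulated subunit of HIF-1, rose at both times. Its CPM was 143, 158 and 140 in WT replicates 1 to 3 at 0 h, 297, 310 and 280 at 4 h, and 470, 494 and 456 at 16 h. The 3 times did not overlap, and each was higher than the one before. The log2 change was 1.00 (SE 0.10) at 4 h and 1.68 (SE 0.10, adjusted p 4.47e-11) at 16 h, a 3.21-fold rise. The rise from 4 h to 16 h, 0.68, missed the threshold after scaling (0.23, adjusted p 0.0668).

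Both genes of the set for prolyl hydroxylases that mark HIF alpha subunits for destruction were lower at 4 h. Both rose from 4 h to 16 h. Egln1, encoding the main one, was at 64.2, 63.4 and 57.2 CPM at 0 h, 7.54, 8.28 and 8.32 CPM at 4 h, and 49.8, 53.6 and 50.6 CPM at 16 h. It fell by 2.79 on the log2 scale at 4 h (SE 0.13, adjusted p 1.12e-12) and at 16 h it was not called against 0 h (-0.26, adjusted p 0.0816), with libraries between those of the 2 earlier times. Egln3, a hydroxylase gene that is itself a strong HIF target, was at 0.482, 0.765 and 0.734 CPM at 0 h, 0.173, 0.228 and 0.0744 CPM at 4 h, and 7.74, 11.0 and 11.1 CPM at 16 h. All its WT libraries before 16 h were below 1 CPM, so it passed the minimum through the 16 h libraries and had to differ, and its log2 change of 2.71 from 0 h to 16 h is given as a description. Its 4 h value of -0.52 was called but came to -0.28 (adjusted p 0.154) after scaling.

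Glucose entry and capture showed a gain in some isoforms and a loss in others. Slc2a1, the GLUT1 glucose carrier, was at 35.2, 36.6 and 36.5 CPM at 0 h, 78.8, 91.9 and 83.5 CPM at 4 h, and 161, 180 and 178 CPM at 16 h. It rose at each time without overlap, by 2.23 (SE 0.11, adjusted p 6.94e-12) over the whole course. Slc2a3, the GLUT3 carrier, was at 10.2, 12.9 and 11.9 CPM at 0 h, 2.69, 2.66 and 2.30 CPM at 4 h, and 4.47, 5.08 and 4.76 CPM at 16 h. It fell by 1.83 at 4 h (SE 0.17, adjusted p 1.13e-08) and stayed below the 0 h libraries. Hk2, an inducible hexokinase that phosphorylates glucose at the mitochondrial surface, was at 56.4, 45.0 and 47.3 CPM at 0 h, 198, 162 and 194 CPM at 4 h, and 120, 136 and 135 CPM at 16 h. It was highest at 4 h, a rise of 1.88 (SE 0.10, adjusted p 7.81e-12), and fell by 0.50 from there to 16 h. Hk3, the hexokinase of myeloid cells, rose by 0.28 at 4 h and 1.40 at 16 h (SE 0.08 for both), and Hk1, the widely expressed one, by 0.25 and 0.20.

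Of the 2 enzymes that set the phosphofructokinase activator, Pfkfb3 had the largest log2 change of the 35 genes at both times. Pfkfb3, the form that mainly makes this activator and so speeds glycolysis, was at 32.6, 26.3 and 27.6 CPM at 0 h, 1252, 1118 and 1189 CPM at 4 h, and 846, 804 and 917 CPM at 16 h. The 4 h libraries lay highest and the 0 h libraries far below both others, a 39.9-fold rise at 4 h (log2 5.32, SE 0.13, adjusted p 2.89e-16) and a 28.8-fold rise at 16 h. Pfkfb4, the second form in this set, was at 32.0, 35.1 and 36.2 CPM at 0 h, 4.94, 4.63 and 4.16 CPM at 4 h, and 28.9, 30.0 and 31.6 CPM at 16 h. It fell by 2.67 at 4 h (SE 0.12, adjusted p 6.23e-13) and missed the threshold at 16 h (-0.18).

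Of the 7 genes of the remaining upper glycolytic steps, 1 rose and 6 fell at 4 h, and 4 were higher and 2 lower at 16 h than at 0 h. After scaling 2 were higher and 3 lower at 4 h, with Aldoa called higher at 0.26, and Aldoc at 0.12 and Pfkl at 0.03 not called. Pfkl, the liver form of phosphofructokinase, was at 55.4, 62.1 and 58.6 CPM at 0 h, 27.8, 35.4 and 32.7 CPM at 4 h, and 180, 210 and 192 CPM at 16 h. Its 16 h libraries were above and its 4 h libraries below all 0 h libraries, and it ended 1.71 higher (SE 0.10, adjusted p 9.78e-11); its log2 change at 4 h was -0.86 before scaling. Pfkp, the platelet form, did the opposite, rising by 1.70 at 4 h (SE 0.11, adjusted p 9.05e-11) and falling by 1.82 from 4 h to 16 h. Pfkm, the muscle form, and Aldoc, a brain aldolase, were lower at 16 h than at 0 h, with log2 changes of -0.96 and -1.11. Gpi1, the isomerase of the second step, Aldoa, the main aldolase, and Tpi1, the triose phosphate isomerase, ended higher by 0.37, 1.11 and 1.37. Tpi1 was at 300.6, 331 and 306 CPM at 0 h, 120, 143 and 126 CPM at 4 h, and 781, 848 and 789 CPM at 16 h, so the 16 h libraries stood far above both other groups.

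Of the 6 lower glycolytic genes 5 fell at 4 h and 5 were above their 0 h level at 16 h. These were Gapdh, the glyceraldehyde phosphate dehydrogenase, Pgk1, which makes the first ATP of the chain, Pgam1, the mutase, Eno1, the main enolase, and Pkm, the pyruvate kinase, with log2 changes between 0.79 and 1.22 at 16 h. After scaling, 4 of the 5 falls at 4 h turned: Gapdh came to 0.21, Pgk1 to 0.63, Eno1 to 0.02 and Pkm to 0.15, while Pgam1 stayed lower at -0.26. Eno2, the neuronal enolase, was called at neither time, with -0.34 at 4 h and -0.13 at 16 h. Reads of Eno1 can be shared with Eno1b, a near-identical copy that the tables list as a row of its own, so Eno1's values are uncertain by what the counting gave to Eno1b.

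Among the 4 lactate genes, 2 ended higher and 2 lower. Slc16a3, the MCT4 carrier that exports lactate from glycolytic cells, was at 31.1, 35.2 and 32.8 CPM at 0 h, 17.8, 21.6 and 18.9 CPM at 4 h, and 273, 338 and 313.1 CPM at 16 h. Its 16 h libraries stood far above the others, 3.18 higher than at 0 h (SE 0.15, adjusted p 3.83e-12), a 9.06-fold rise, and its 4 h fall, -0.74, turned to 0.14 after scaling. Ldha, the lactate dehydrogenase subunit that favours making lactate, rose by 1.20 at 16 h; at 4 h it was called lower (-0.73) as deposited and higher (0.18) after scaling. Ldhb, the subunit more abundant in oxidative tissues, was lower by -1.37 at 16 h (SE 0.25), and Slc16a1, the MCT1 carrier, by -0.53, a call that was lost after scaling (-0.09, adjusted p 0.526).

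Among the 8 other HIF-1 targets 4 were higher and 3 lower at 16 h than at 0 h. Bnip3, which drives removal of mitochondria, was at 20.2, 25.1 and 22.8 CPM at 0 h, 8.06, 9.49 and 9.36 CPM at 4 h, and 102, 121 and 108 CPM at 16 h. The 3 groups did not overlap, and the rise over the whole course was 2.24 (SE 0.13, adjusted p 5.36e-11). Ero1l, an oxidase of protein folding in the endoplasmic reticulum, and P4ha1, a collagen prolyl hydroxylase, rose at both times, both by 1.16 at 16 h, and Vegfa, the angiogenic growth factor, by 0.66 (SE 0.29). Vegfa's call held in 1 of 6 fits that left out 1 library, with an adjusted p up to 0.153 without WT replicate 1 of 0 h. Mxi1, an antagonist of MYC, was at 49.9, 49.5 and 51.6 CPM at 0 h, 11.4, 12.8 and 11.0 CPM at 4 h, and 18.5, 18.8 and 16.8 CPM at 16 h. All its LPS libraries lay below all its 0 h libraries, by -2.01 at 4 h and -1.43 at 16 h. Pdk1, which holds pyruvate back from mitochondria, and Bnip3l, a relative of Bnip3, were also lower at 16 h, by -0.42 and -0.21, but after scaling they came to 0.04 and 0.25. Higd1a, a small mitochondrial protein gene, was called lower at 4 h (-0.49; 0.38 after scaling) and missed the threshold at 16 h.

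Put as a time course, 21 of the 35 genes fell from 0 h to 4 h and rose from 4 h to 16 h. Of these 21, 13 ended above 0 h. Over all genes 71.3% fell from 0 h to 4 h. The share of all genes with the whole course is not given here, so these counts are a description. Egln3 is in the 21 and the 13, in the 22 higher at 16 h and in the 27 that follow. It had to differ, for the reason given with its values, so its place is no support for these counts. Hif1a, Slc2a1, Hk3, Ero1l and P4ha1 rose in both intervals, while Hk2, Pfkp, Pfkfb3 and Slc16a1 rose and then fell. From 4 h to 16 h 27 members rose and 5 fell, when 51% of all genes rose and 22.1% fell, 73.2% together. After scaling, 8 genes fell and then rose. The adjusted p of the members called was at most 0.0493 at 4 h and 0.044 at 16 h over 0 h, and SEs lay between 0.07 and 0.29. Beside Vegfa, calls lost on leaving out 1 library were those of Bnip3l and Hk1 at 16 h, which held in 1 and 2 of 6 fits with adjusted p up to 0.0863 and 0.0806 without WT replicates 1 and 2 of 16 h, and of Pgk1 at 4 h, which held in 1 of 6, up to 0.173 without WT replicate 1 of 4 h. Groups did not overlap in 34 members at 4 h, against 89.2% of all genes, and in 33 at 16 h, against 81.2%.

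**Figure D1:**
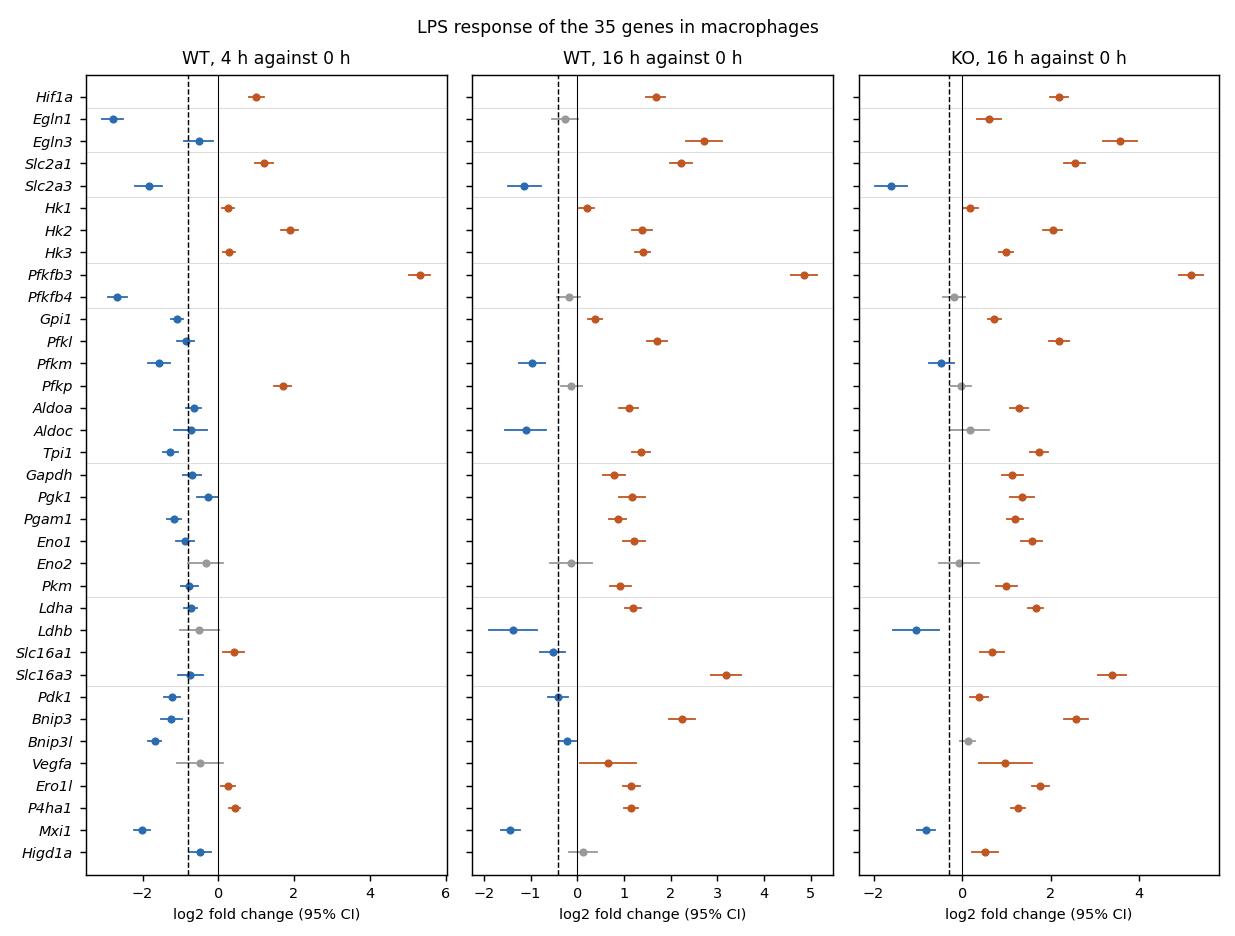
LPS response of the 35 genes, ordered by role, as log2 fold change in CPM with 95% confidence intervals for WT at 4 h, WT at 16 h and KO at 16 h, each against 0 h of the same genotype. Orange and blue points were called higher and lower, grey points were not called, and the dashed line is the median of all genes, -0.81, -0.41 and -0.30; blue points that lie right of the dashed line include those whose direction turns with the scaling, such as Pfkl at 4 h.

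The 4 members with the largest rise from 0 h to 16 h in WT cells were Pfkfb3, Slc16a3, Egln3 and Bnip3, and the bases before their starts are shown because HIF-1 is known to bind a core of ACGTG or GCGTG. Pfkfb3 rose and then fell between 0, 4 and 16 h, and the other 3 fell and then rose; Egln3's place in this order is a description, for the reason given with its values. Each sequence is the 250 bases before a transcription start in RefSeq (build GRCm38.p6), 5' to 3' on the gene's strand, with ACGTG and its reverse complement CACGT in capitals. Pfkfb3 has 2 starts, at chr2:11553930-11554179 and chr2:11502091-11502340, both on the minus strand. Slc16a3 is at chr11:120948817-120949066 on the plus strand, Egln3 at chr12:54203875-54204124 and Bnip3 at chr7:138909507-138909756, both on the minus strand.
Pfkfb3 first start: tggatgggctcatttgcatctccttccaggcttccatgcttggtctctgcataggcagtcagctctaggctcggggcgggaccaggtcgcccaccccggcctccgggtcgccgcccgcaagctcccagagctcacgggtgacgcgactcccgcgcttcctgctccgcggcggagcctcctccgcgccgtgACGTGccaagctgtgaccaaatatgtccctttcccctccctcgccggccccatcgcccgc
Pfkfb3 second start: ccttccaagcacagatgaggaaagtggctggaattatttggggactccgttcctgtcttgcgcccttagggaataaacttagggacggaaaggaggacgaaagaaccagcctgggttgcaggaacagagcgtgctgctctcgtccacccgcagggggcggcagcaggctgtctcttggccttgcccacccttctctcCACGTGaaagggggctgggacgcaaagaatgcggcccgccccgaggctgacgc
Slc16a3: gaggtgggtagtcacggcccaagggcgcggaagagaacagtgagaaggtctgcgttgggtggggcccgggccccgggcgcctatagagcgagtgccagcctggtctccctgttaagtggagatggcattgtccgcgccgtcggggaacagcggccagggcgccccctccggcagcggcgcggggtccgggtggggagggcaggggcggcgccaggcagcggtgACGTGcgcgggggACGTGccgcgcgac
Egln3: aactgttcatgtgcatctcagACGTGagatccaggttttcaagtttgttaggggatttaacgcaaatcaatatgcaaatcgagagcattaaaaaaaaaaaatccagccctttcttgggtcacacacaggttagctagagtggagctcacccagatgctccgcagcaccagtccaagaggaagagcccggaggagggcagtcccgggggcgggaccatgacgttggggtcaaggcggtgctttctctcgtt
Bnip3: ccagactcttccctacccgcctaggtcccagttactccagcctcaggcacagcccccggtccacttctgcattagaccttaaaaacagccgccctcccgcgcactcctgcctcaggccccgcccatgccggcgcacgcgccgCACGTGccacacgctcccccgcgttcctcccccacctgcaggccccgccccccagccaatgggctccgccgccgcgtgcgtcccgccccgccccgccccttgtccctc
Every window holds ACGTG on at least 1 strand, and in the second Pfkfb3 window and in Bnip3 the capitals form CACGTG, which counts on both strands.

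Promoters were listed for 32 of the 35 members, all but Slc2a3, Bnip3l and Ero1l. ACGTG on either strand was in the first listed window of 15 of these 32 (46.9%), against 16.6% of all genes listed, and GCGTG, or CACGC on the other strand, was also in 46.9%, against 28.2%. Since the members were chosen in part as HIF-1 targets, these shares are a description. By LPS response, ACGTG was in the first window of 12 of 21 members that were higher at 16 h, 2 of 6 that were lower and 1 of 5 that were not called. CCGGAAGT, a core of the kind ETS factors bind, or ACTTCCGG on the other strand, was in none of the members' windows, against 2.9% of all promoters. These are letters in a window and were not tested as binding sites.

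Before LPS the KO macrophages differed from WT in 1 of the 35 genes. Pfkp was lower, at 69.1, 55.3 and 49.7 CPM in KO against 84.3, 80.0 and 83.7 CPM in WT. The groups did not overlap, and the log2 difference was -0.52 (SE 0.11, adjusted p 0.0456), when 0.44% of all genes were called. This call was lost in 5 of the 6 fits that left out 1 library, with an adjusted p up to 0.178 without WT replicate 1, though the difference stayed between -0.65 and -0.41. Hif1a was at 163, 165 and 154 CPM in KO cells, which overlapped WT (0.13, SE 0.10, adjusted p 0.77). The members' median difference was 0.06, against 0.00 over all genes. Groups did not overlap in 6 of the 35 members, against 14.2% of all genes.

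After 4 h of LPS, KO macrophages had more Hif1a message than WT, and more of 1 of the 2 glucose carriers and 1 of the 4 lactate genes. Of the 35 genes 6 were higher and 2 lower, when 2.38% of all genes were higher and 1.81% lower, 4.19% together. The members' median difference was 0.17, against 0.04 over all genes. The 6 higher genes were Hif1a, Slc2a1, Pfkl, Slc16a3, Bnip3 and Egln1, and the 2 lower were Hk3 and Pfkp.

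Hif1a at 4 h was at 388, 434 and 526 CPM in KO cells against 297, 310 and 280 CPM in WT. Every KO library was above every WT library, by 0.59 on the log2 scale (SE 0.10, adjusted p 0.00286), a 1.51-fold difference. Slc16a3, the lactate exporter, was at 33.5, 48.5 and 55.5 CPM in KO against 17.8, 21.6 and 18.9 CPM in WT. It had the largest difference at 4 h, 2.25-fold (log2 1.17, SE 0.15, adjusted p 0.00078), again without overlap. Bnip3 was at 12.3, 18.9 and 18.2 CPM against 8.06, 9.49 and 9.36 CPM, 0.79 higher (SE 0.13, adjusted p 0.00318). Pfkl was at 46.1, 58.5 and 54.7 CPM against 27.8, 35.4 and 32.7 CPM, 0.72 higher (SE 0.10, adjusted p 0.00177). Both sets of KO libraries lay above WT. Slc2a1 was at 116, 125 and 159 CPM against 78.8, 91.9 and 83.5 CPM, 0.64 higher (SE 0.11, adjusted p 0.00448). Egln1 was at 10.9, 13.6 and 10.5 CPM against 7.54, 8.28 and 8.32 CPM, 0.48 higher (SE 0.13, adjusted p 0.0462). Neither gene's groups overlapped.

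The lower genes at 4 h were Hk3, by -0.47 (SE 0.08, adjusted p 0.00325), and Pfkp, by -0.45 (SE 0.11, adjusted p 0.0264). Egln1 lost its call in each of the 6 fits that left out 1 library, with an adjusted p up to 0.19 without KO replicate 2, and Pfkp in 4 of the 6, up to 0.121 without WT replicate 3. The other 6 calls held in all of them. Groups did not overlap in 16 of the 35 members, against 22.4% of all genes. Scaling left the same 6 higher and 2 lower, when all genes went from 287 higher and 218 lower to 247 and 366.

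By 16 h of LPS the difference between KO and WT macrophages covered most of the set. Of the 35 genes 24 were higher in KO and 3 lower, when 20.9% of all genes were higher and 9.65% lower, 30.5% together. The members' median difference was 0.42, against 0.12 over all genes, and groups did not overlap in 32 of the 35, against 48.7% of all genes. The 8 genes not called were Hk1, Pfkfb3, Pfkfb4, Aldoa, Pgk1, Eno2, Pkm and Vegfa. After scaling, which took the median of all genes to 0.02, 17 stayed higher and the same 3 lower; Aldoc, Tpi1, Gapdh, Pgam1, Bnip3l, P4ha1 and Higd1a lost their call. Over all genes the scaling turned 2520 higher and 1163 lower into 1506 and 1688.

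Hif1a at 16 h was at 659, 816 and 750 CPM in KO cells, above all WT libraries at 470, 494 and 456 CPM, by 0.64 (SE 0.10, adjusted p 0.000216). Both hydroxylase genes of the set were higher as well. Egln1 was at 86.6, 104 and 107 CPM in KO against 49.8, 53.6 and 50.6 CPM in WT, 1.90-fold (log2 0.93, SE 0.13, adjusted p 0.000116). Egln3 was at 15.1, 23.4 and 24.4 CPM against 7.74, 11.0 and 11.1 CPM, 1.99-fold (log2 0.99, SE 0.18, adjusted p 0.000868). In neither did the groups overlap.

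The 4 lactate genes were all higher in KO at 16 h. Slc16a1, the MCT1 carrier, was at 29.7, 37.1 and 29.0 CPM against 14.6, 15.2 and 15.7 CPM in WT, a difference of 1.02 on the log2(CPM + 1) scale (SE 0.13, adjusted p 5.47e-05). Its WT libraries lay below all WT libraries at 0 h, while its KO libraries lay above all KO libraries at 0 h. Ldhb was at 2.14, 3.82 and 5.24 CPM against 0.781, 1.78 and 1.31 CPM, 1.01 higher (SE 0.25, adjusted p 0.00587), a low gene in both genotypes. Slc16a3 was higher by 0.53 (SE 0.15, adjusted p 0.0142) and Ldha by 0.43 (SE 0.08, adjusted p 0.0011).

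Of the 8 other HIF-1 targets 7 were higher in KO. Pdk1, the kinase that switches pyruvate dehydrogenase off, was at 71.7, 90.4 and 82.1 CPM against 40.9, 49.1 and 47.9 CPM, 0.81 higher (SE 0.10, adjusted p 3.77e-05). Mxi1 was at 28.8, 28.5 and 37.4 CPM against 18.5, 18.8 and 16.8 CPM, 0.77 higher (SE 0.10, adjusted p 5.9e-05). KO libraries were above WT in both genes. Bnip3 (0.67, SE 0.13, adjusted p 0.00143) and Ero1l (0.55, SE 0.09, adjusted p 0.00036) were also higher. Smaller differences were called for Higd1a (0.42), Bnip3l (0.26) and P4ha1 (0.25), with adjusted p of 0.0327, 0.0259 and 0.0144.

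Along glycolysis itself isoforms of one step differed in sign. Slc2a1 was higher in KO at 16 h (0.47, SE 0.11, adjusted p 0.00483) and Slc2a3 lower (-0.68, SE 0.17, adjusted p 0.00634). Hk2 was higher (0.58, SE 0.10, adjusted p 0.000639) and Hk3 lower (-0.56, SE 0.08, adjusted p 0.000115). Pfkm (0.71, SE 0.13, adjusted p 0.00114) and Pfkl (0.63, SE 0.10, adjusted p 0.000426) were higher and Pfkp lower (-0.41, SE 0.11, adjusted p 0.0094). Each of these signs was the same after scaling. Among steps with 1 main enzyme, Eno1 was higher by 0.41, Gpi1 by 0.37, Gapdh by 0.36, Tpi1 by 0.33 and Pgam1 by 0.29, with adjusted p between 0.00129 and 0.0225. Aldoc was called at 0.56 (SE 0.21, adjusted p 0.0484) with overlapping groups, and Pfkfb3 was not called at 0.35 (adjusted p 0.0514), with every KO library above WT.

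The calls of 18 of the 27 members at 16 h held in every fit that left out 1 library. The other 9, Aldoc, Bnip3l, Eno1, Gapdh, Higd1a, P4ha1, Pgam1, Slc16a3 and Tpi1, lost theirs in at least 1, with an adjusted p up to 0.188 for Aldoc without WT replicate 1. With KO replicate 2, the library richest in stromal markers, left out at all 3 times, 25 members were called at 16 h, of which 24 were among the 27; Aldoc, Higd1a and P4ha1 were lost. At 4 h 7 of the 8 held without it, all but Egln1. Of the 8 stromal markers tested 2 were higher in KO at 16 h (median 0.96), and 6 of 7 proliferation markers were higher (median 1.24), with sums of 59.0 to 73.1 CPM in WT and 112 to 204 CPM in KO. Beyond leaving that library out, the part of these cells and of dividing cells in the result was not tested.

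**Figure D2:**
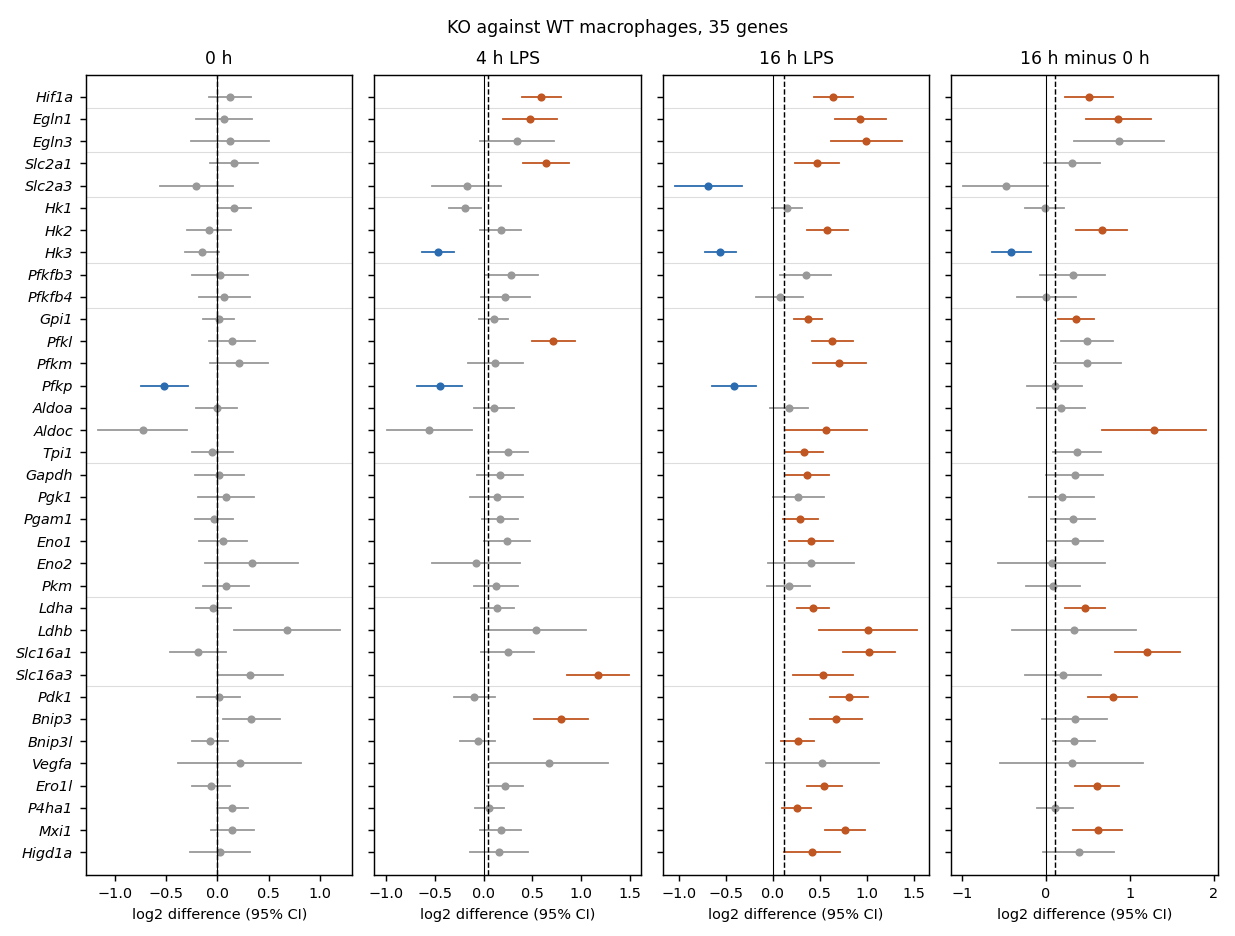
Difference between KO and WT macrophages in the 35 genes, ordered by role, as log2 difference with 95% confidence intervals at 0 h, 4 h and 16 h, and, in the last panel, the 16 h difference minus the 0 h difference. Orange and blue points were called higher and lower in KO, grey points were not called, and the dashed line is the median of all genes; the calls go from 1 at 0 h to 8 at 4 h and 27 at 16 h, of which 17 higher and 3 lower hold after scaling.

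Whether the genotype difference itself changed with LPS was tested as the 16 h difference minus the 0 h difference. It was larger at 16 h in 10 members and smaller in 1, when 3.62% of all genes were larger and 2.83% smaller, 6.45% together. The members' median was 0.34, against 0.11 over all genes. Aldoc had the largest value, 1.29 (SE 0.29, adjusted p 0.0179): it was at 11.2, 7.81 and 13.2 CPM in KO against 17.2, 20.1 and 16.9 CPM in WT at 0 h, and at 9.33, 12.7 and 14.6 CPM against 6.32, 10.0 and 7.52 CPM at 16 h. The 0 h libraries did not overlap, but that difference was not called (-0.73, adjusted p 0.155), and the 16 h call was lost after scaling and held in 2 of 6 fits that left out 1 library.

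Slc16a1 followed at 1.20 (SE 0.18, adjusted p 0.00221), Egln1 at 0.86 (SE 0.18, adjusted p 0.0134) and Pdk1 at 0.80 (SE 0.14, adjusted p 0.00497). Pdk1 was at 63.9, 64.6 and 57.8 CPM in KO and 60.3, 64.1 and 60.05 CPM in WT at 0 h, where the groups overlapped. Hk2 (0.66, adjusted p 0.0147), Mxi1 (0.62, adjusted p 0.0176), Ero1l (0.61, adjusted p 0.0115), Hif1a (0.51, adjusted p 0.0347), Ldha (0.47, adjusted p 0.0249) and Gpi1 (0.36, adjusted p 0.044) were also larger at 16 h, and Hk3 was more negative (-0.41, adjusted p 0.0345). After scaling 7 calls held, and those of Hif1a, Hk2, Gpi1 and Ldha did not, with Hif1a at 0.41 (adjusted p 0.127). Over all genes the scaling changed 437 larger and 341 smaller to 209 and 387. The count was 6 without WT replicate 2 of 0 h or WT replicates 1 or 3 of 16 h, and 7 without KO replicate 2 of 16 h. Slc16a1, Egln1, Pdk1, Hk2 and Ero1l held in all 12 fits that left out 1 library, Mxi1 in 11, Aldoc in 10, Ldha in 8, Hk3 in 6, and Hif1a and Gpi1 in 3. Without WT replicate 2 of 0 h the adjusted p was 0.0567 for Aldoc, 0.0716 for Ldha, 0.101 for Hk3, 0.0975 for Hif1a and 0.114 for Gpi1, and without WT replicate 3 of 16 h it was 0.0524 for Mxi1. For 4 h minus 0 h no member was called by limma, 11 had an unadjusted p below 0.05, and 0.00829% of all genes were called.

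The KO cells' own LPS response was fitted as well. At 16 h 26 members were higher than at 0 h and 4 lower, when 17.8% of all genes were higher and 50.1% lower, 67.9% together. The members' median was 1.00, against -0.30 over all genes. After scaling 28 were higher and 3 lower, when all genes went from 2149 higher and 6044 lower to 3769 and 3516. Egln3 is among the 26, but its rise is a description here too. Pfkfb3 rose by 5.17, Slc16a3 by 3.39, Bnip3 by 2.58, Slc2a1 by 2.54 and Hif1a by 2.20. Slc16a1 and Pdk1, which fell in WT cells, rose by 0.68 and 0.38 in KO cells, though both WT calls were lost after scaling, with Slc16a1 at -0.09 and Pdk1 at 0.04. At 4 h 8 were higher and 21 lower, when 15.6% of all genes were higher and 70.8% lower, 86.4% together. After scaling 18 were higher and 7 lower, when all genes went from 1882 higher and 8540 lower to 4240 and 4447.

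**Figure D3:**
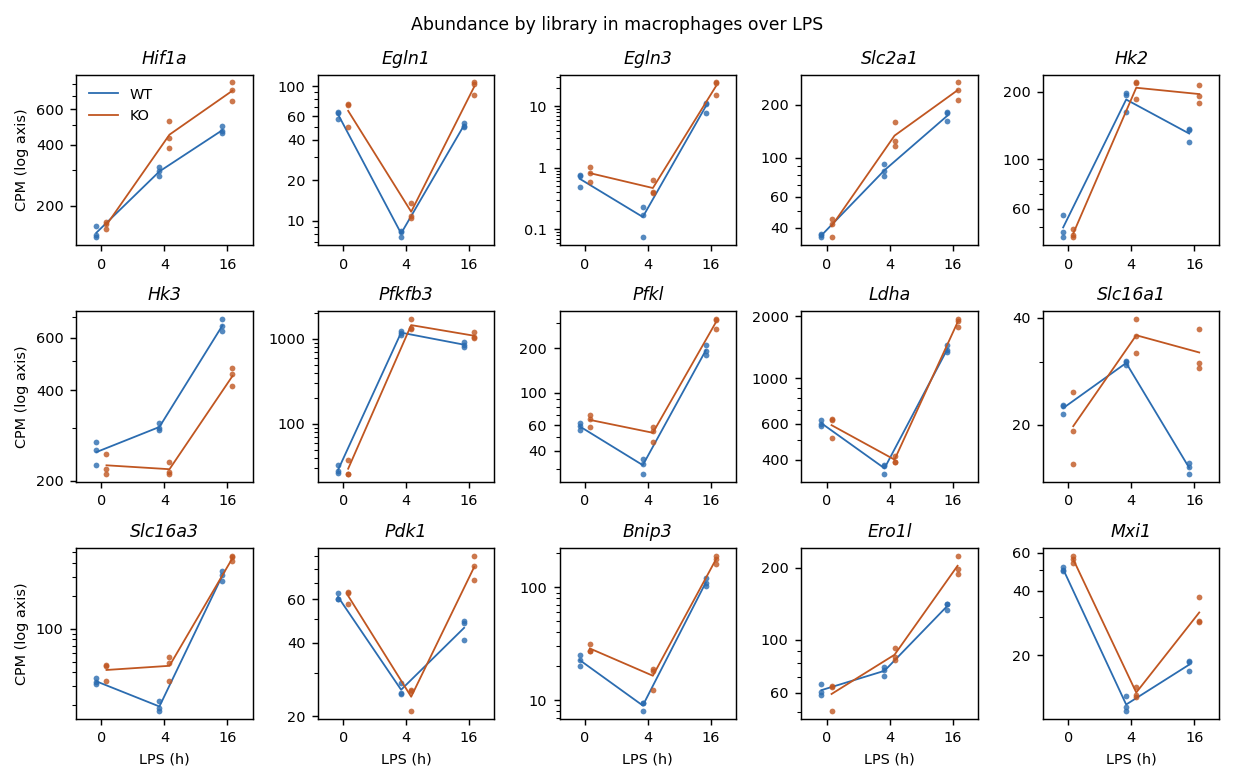
CPM of 15 of the genes in each macrophage library (points) with group means (lines) at 0, 4 and 16 h of LPS, for WT (blue) and KO (orange), 3 libraries a group, on log axes that differ between panels; times are drawn evenly spaced. Hif1a, Slc2a1 and Pfkl libraries of KO lie above all WT libraries at 4 h and 16 h, Hk3 libraries of KO lie below, and Slc16a1 falls from 4 h to 16 h in WT to 14.6 to 15.7 CPM.

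Genes of the same pathways outside the set were read from 2 further lists. Of 29 other glycolysis and glucose genes tested, 2 were higher in KO at 4 h, Gys1, the glycogen synthase (0.60), and Slc16a6, a monocarboxylate carrier family member (0.59). At 16 h 13 were higher and 1 lower, among them Pygl, a glycogen phosphorylase (0.98), Adpgk, the ADP-dependent glucokinase (0.70), and Slc2a6, a GLUT family carrier (-0.61). Of 35 other HIF pathway genes tested, 4 were higher and 1 lower at 4 h, with Ddit4, an inhibitor of mTOR signalling, at 1.57, Ak4, a mitochondrial adenylate kinase, at 1.30, Kdm3a, a histone demethylase, at 0.77 and Cited2, a competitor of HIF-1 for its coactivator, at -0.74. At 16 h 11 were higher and 1 lower, with Ddit4 at 1.03, Ak4 at 1.02 and Hmox1, the haem oxygenase, at -0.42. Called shares at 4 h were 6.9% of the glucose list and 14.3% of the HIF list, beside 4.19% of all genes. At 16 h they were 48.3% and 34.3%, beside 30.5% of all genes, and the medians were 0.25 and 0.35, beside 0.12.

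In naive CD4 T cells the levels of the set ranged widely, and few members were called. Of the 35 genes 29 passed the minimum of 1 CPM in 3 libraries in the KO-labelled set and 28 in the W250S set; Aldoc, Egln3, Hk2, Hk3, Slc16a3 and Vegfa passed in neither. Between KO-labelled and WT libraries 4 members were higher and none lower, when 4.39% of all genes were higher and 3.64% lower, 8.03% together. The median was 0.04, against 0.00 over all genes. Eno2, the neuronal enolase, was at 1.72, 1.46, 1.82 and 1.58 CPM in KO-labelled libraries 1 to 4 against 0.515, 0.429 and 0.351 CPM in WT. It passed the minimum only through the libraries where it is high and so had to differ: its log2 difference of 0.89 is a description, and its place among the 4 is no support for the count.

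Tpi1 was at 11.4, 11.1, 9.27 and 10.7 CPM in KO-labelled against 6.94, 7.98 and 6.98 CPM in WT cells, 0.48 higher (SE 0.09, adjusted p 0.00898). Ldhb was at 4.64, 3.31, 4.39 and 4.61 CPM against 2.402, 3.04 and 2.86 CPM, 0.47 higher (SE 0.12, adjusted p 0.0344). Hif1a was at 37.4, 40.6, 39.8 and 33.7 CPM against 30.7, 30.5 and 31.7 CPM, 0.28 higher (SE 0.07, adjusted p 0.0411). The groups did not overlap in any of the 3 genes. Over the set they did not overlap in 8 of the 29 members tested, against 21.2% of all genes. None of the 3 held its call in all 7 fits that left out 1 library: Tpi1 held in 6, Ldhb in 2 and Hif1a in 1, with adjusted p up to 0.05, 0.137 and 0.129. In all, 2 members were called without WT replicate 1 or 3 or KO-labelled replicate 1 or 3. Hif1a lost its call after scaling (0.26, adjusted p 0.063). Haemoglobin and other erythroid genes summed to at most 0.158 CPM in WT and up to 33.4 CPM in KO-labelled libraries, and their part was not tested.

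In W250S naive cells 3 members were higher than in WT and none lower, when 3.31% of all genes were higher and 0.855% lower, 4.16% together; the median was 0.10, against 0.07 over all genes. Bnip3 was at 2.77, 1.93 and 2.92 CPM in W250S replicates 1 to 3 against 1.73, 0.942 and 1.35 CPM in WT, 0.60 higher (SE 0.16, adjusted p 0.0414). Higd1a was at 3.25, 3.21 and 2.92 CPM against 1.74, 2.25 and 1.80 CPM, 0.50 higher (SE 0.14, adjusted p 0.0451). Tpi1 was at 13.1, 12.7 and 13.6 CPM against 8.97, 10.0 and 9.81 CPM, 0.42 higher (SE 0.11, adjusted p 0.042). None of these groups overlapped. Over the set, groups did not overlap in 5 of the 28 members tested, against 21.7% of all genes. No call was left after scaling, where all genes went from 410 higher and 106 lower to 219 and 180, and leaving out any 1 library left 0 or 1. Hif1a was at 48.8, 42.3 and 53.8 CPM against 39.4, 35.5 and 41.6 CPM, without overlap but not called (0.30, SE 0.11, adjusted p 0.158).

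Of the other lists in naive cells, Epas1, the HIF-2 alpha subunit, was lower in both comparisons, by -1.04 in KO-labelled and -0.73 in W250S cells, and Ndrg1, a hypoxia-induced gene, and Ldhd, the D-lactate dehydrogenase, were higher in both. Ndrg1 differed by 0.62 and 0.58 and Ldhd by 0.97 and 0.72. In KO-labelled cells Car12, a carbonic anhydrase, was lower by -0.80 and Rora, a nuclear receptor, higher by 0.43. In KO-labelled cells 2 of 24 tested glucose genes and 4 of 24 HIF genes were called, when 8.03% of all genes were. The counts in W250S cells were 2 of 23 each, when 4.16% of all genes were called.

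Naive and Th17 levels are set side by side only, since each T cell table was normalized on its own, and the members differed in which was higher. Hk2 was at 0.0381 to 0.193 CPM over all naive libraries and at 105 to 142 CPM over all Th17 libraries. Egln3 was at 0.365 to 1.53 CPM in naive and 71.7 to 138 CPM in Th17 libraries, and Slc16a3 at 0.523 to 1.12 and 71.3 to 109 CPM. Pdk1 was the other way round, at 193 to 296 CPM in naive and 78.8 to 95.4 CPM in Th17 libraries, as was Bnip3l, at 65.0 to 87.4 and 37.9 to 60.2 CPM. Pfkfb4 overlapped, at 2.71 to 5.98 and 3.10 to 4.34 CPM, and so did Slc2a3, Gpi1, Pfkm, Pfkp, Aldoc, Eno2, Ldhb, P4ha1 and Higd1a. Hk3 overlapped in pathogenic cells, the only Th17 cells where it was listed. Between these tables no difference was tested. The tables list close copies of Eno1, Ldha, Gapdh, Pgam1 and Bnip3l as rows of their own, and Eno1b, at a mean of 643 CPM in WT non-pathogenic cells, exceeded Eno1 there, so these 5 genes' T cell values are uncertain.

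**Figure D4:**
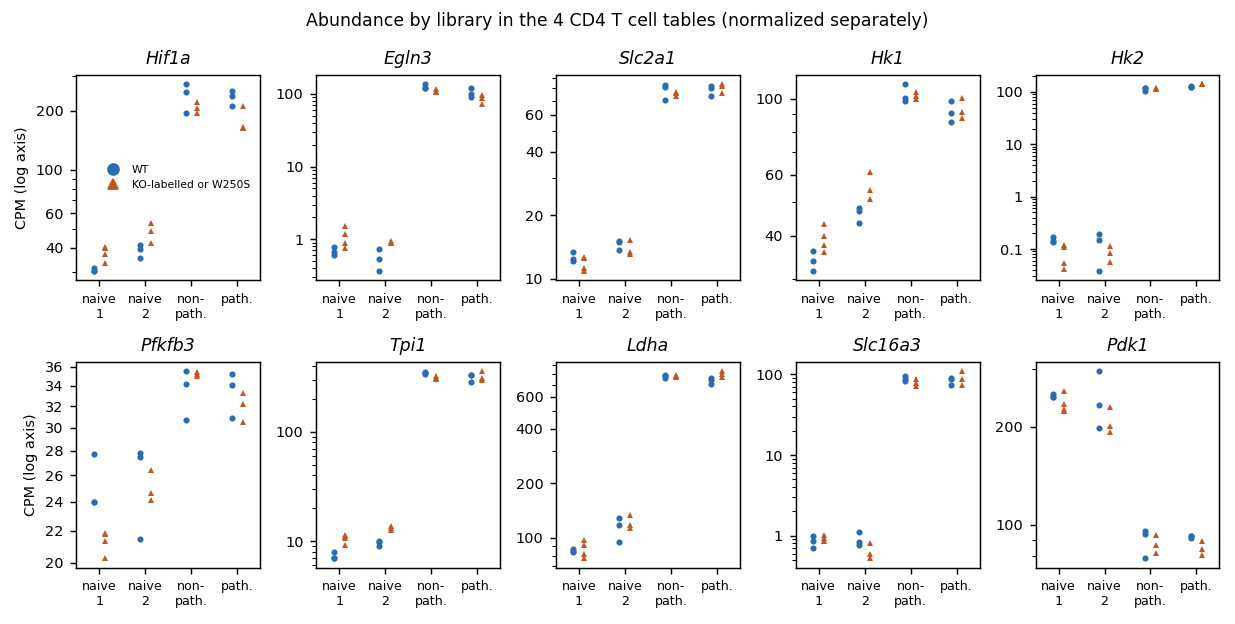
CPM of 10 of the genes in each CD4 T cell library, WT as circles and KO-labelled or W250S as triangles, on log axes that differ between panels, in 4 separately normalized tables: naive 1 holds the KO-labelled set, naive 2 the W250S set, followed by non-pathogenic and pathogenic Th17 cells. Hk2, Egln3 and Slc16a3 are at or below 1.53 CPM in all naive libraries and at or above 71.3 CPM in all Th17 libraries, and Pdk1 is higher in naive ones.

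In pathogenic Th17 cells no member was called between W250S and WT by limma. An unadjusted p below 0.05 was found for 6 of 34 tested, and 2.06% of all genes were called; the median was -0.01, against 0.01 over all genes. Hif1a was at 163, 211 and 166 CPM in W250S against 254, 212 and 238 CPM in WT. The W250S libraries were all below WT, W250S replicate 2 only just, and the difference was -0.39 (SE 0.10, adjusted p 0.0721). Groups did not overlap in 8 of the 34 members tested, against 24.4% of all genes. After scaling Hif1a (-0.39, adjusted p 0.0442) and Bnip3l (-0.37, adjusted p 0.0475) were called, when calls over all genes went from 263 to 357. Without W250S replicate 2, 3 members were called. The share of all genes called in that fit is not given here, so this count is a description.

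In non-pathogenic Th17 cells 3 members were lower in W250S and none higher, when 4.12% of all genes were higher and 2.94% lower, 7.06% together. The members' median was -0.08, against 0.04 over all genes, and 6 of the 34 tested were above that median. Aldoc was at 0.851, 1.21 and 1.504 CPM in W250S against 1.83, 2.71 and 2.89 CPM in WT, -0.66 (SE 0.15, adjusted p 0.0281). Vegfa was at 15.9, 12.1 and 17.4 CPM against 19.9, 19.7 and 26.2 CPM, -0.51 (SE 0.13, adjusted p 0.0409). Aldoa was at 257, 266 and 271 CPM against 303, 296 and 318 CPM, -0.21 (SE 0.05, adjusted p 0.0344). No W250S library overlapped WT in these genes. Over the set, groups did not overlap in 8 of the 34 members tested, against 31.6% of all genes. After scaling 8 were lower, adding Slc2a3, Gpi1, Tpi1, Eno1 and Egln3, when all genes went from 528 higher and 377 lower to 842 and 880. The count was 0 without WT replicate 3 or W250S replicate 1 or 2, and 6 without WT replicate 1 or 2. Shares of all genes called in those fits are not given here.

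Hif1a in non-pathogenic cells was at 208, 195 and 223 CPM in W250S and 195, 249.1 and 275 CPM in WT, overlapping groups (-0.19, adjusted p 0.255). In these cells 4 of 24 other glucose genes were lower, with Pck2, the mitochondrial PEP carboxykinase, at -1.16, Gys1 at -0.58, and G6pdx and Tkt, both of the pentose phosphate pathway, at -0.26 and -0.21. Of 30 other HIF genes 3 were lower, with Hmox1 at -0.60, Ciart, a repressor of the circadian clock, at -0.40 and Zfp395, a zinc finger gene, at -0.37. Over all genes 2.94% were lower in these cells. None of either list was called in pathogenic cells by limma, where 3 of 23 and 5 of 30 had an unadjusted p below 0.05. The 1 stromal marker tested, Lum, was called higher in W250S in both Th17 tables (0.80 and 0.88), and its part was not tested.

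The test of whether the W250S difference itself differed between pathogenic and non-pathogenic cells, paired by the cell source that the column numbers name, called no member and 0 of 12642 genes by limma; 3 members had an unadjusted p below 0.05. Hif1a's value was -0.20 (95% interval -0.56 to 0.16). Libraries with the same number correlated between -0.21 and 0.148 in their deviations from the group means, so the pairing is uncertain, and the fit without it also called 0. Without WT replicate 2, 1 member was called, and the share of all genes called in that fit is not given here.

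**Figure D5:**
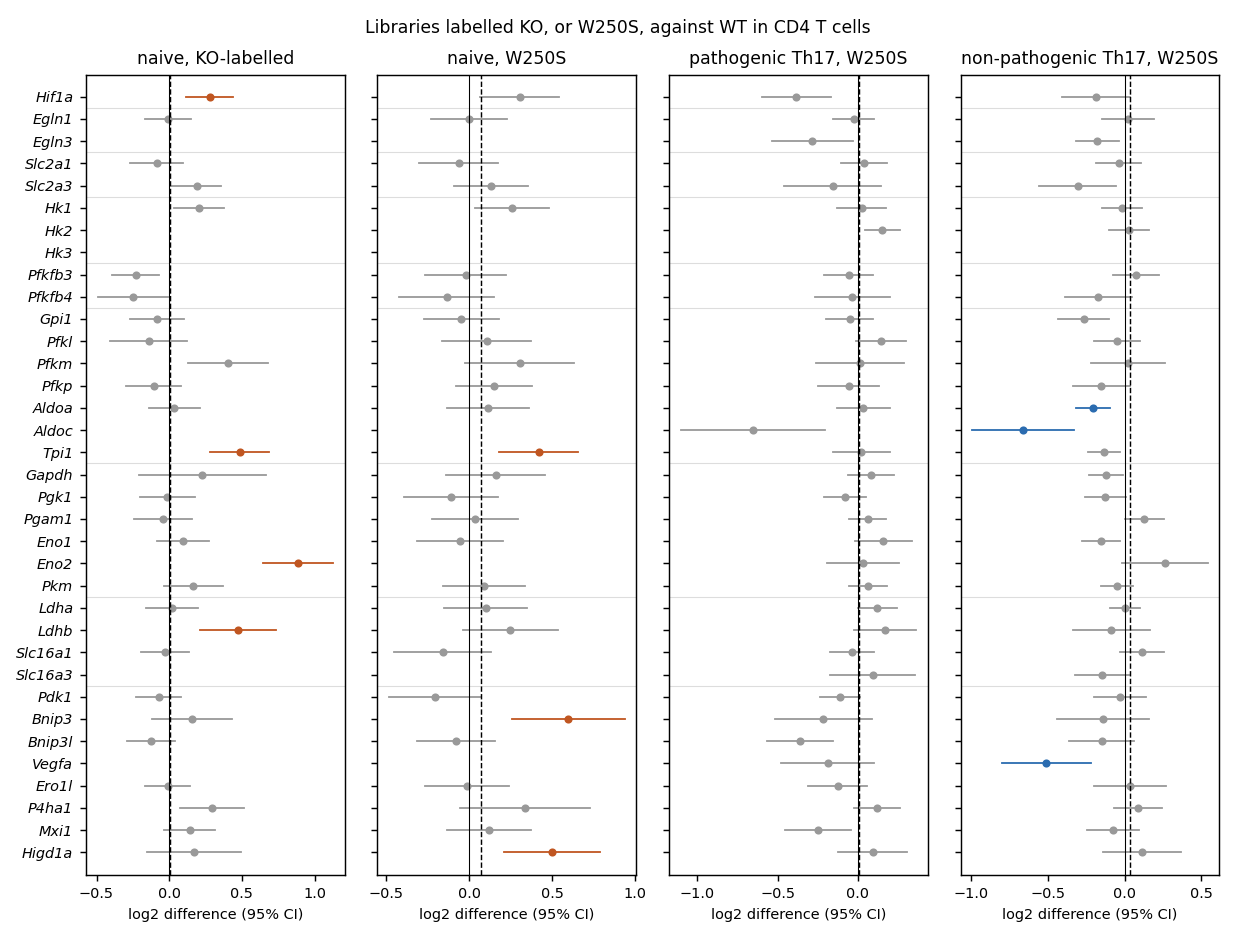
Log2 difference with 95% confidence intervals between KO-labelled or W250S and WT CD4 T cells in 4 comparisons, for the 35 genes ordered by role; genes without a point were not tested. Orange and blue points were called higher and lower, grey points not, and the dashed line is the median of all genes, at most 0.07 from 0: 4, 3, 0 and 3 genes were called, of which 3, 0, 0 and 3 hold after scaling.

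Open chromatin of naive CD4 T cells was read at 161 peaks annotated to 34 of the members, on build mm10. Of these 87 had enough reads to test, and none differed between KO-labelled and WT libraries by edgeR's quasi-likelihood test; 6 had an unadjusted p below 0.05, and of 47000 peaks in all 0.00851% were called. DESeq2 also called none. Without WT replicate 1, 5 of the members' peaks were called higher. The share of all peaks called in that fit is not given here, so this count is a description. WT libraries held 6.19 M, 6.56 M and 9.71 M reads in peaks and KO-labelled libraries 13.7 M, 9.61 M and 13.5 M.

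The promoter peak of Hif1a (chr12:73907328-73908581) had 115, 99.9 and 90.6 CPM in WT and 110, 114 and 112 in KO-labelled libraries, which overlapped (0.14, SE 0.08, adjusted p 0.605). Egln1 had the largest difference, at a small peak at its start (chr8:124949295-124949464) with 24, 4 and 1 reads in WT and 71, 48 and 70 in KO-labelled libraries. These did not overlap, yet the adjusted p was 0.354 (log2 1.87, SE 0.61), and the larger peak beside it (chr8:124949479-124950256) was not called (0.03, adjusted p 0.957), at 20.01, 16.4 and 18.6 against 18.7, 18.96 and 18.6 CPM. Both Pfkfb3 starts lay in open chromatin, with the peak over the second start (chr2:11501171-11503502) at 77.9, 93.1 and 101 CPM in WT and 95.5, 93.6 and 93.9 in KO-labelled libraries. At the starts of Tpi1 (chr6:124813594-124814474) and Ldhb (chr6:142507230-142508347), whose messages were called higher in KO-labelled cells, the differences were 0.14 (adjusted p 0.759) and 0.19 (adjusted p 0.582). Of the 32 members with a listed promoter, 21 had their first 250-base window wholly inside naive CD4 peaks annotated to that gene. In 8 none of it lay in such a peak, but peaks annotated to other genes were not counted. Among these 8, Eno1, Aldoa, Pfkm and Mxi1 had another listed window wholly inside such a peak. Pfkfb3, Slc16a3 and Bnip3 were among the 21 and Egln3 had 242 of its 250 bases inside, although Egln3 and Slc16a3 were at or below 1.53 CPM in these cells.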

How the data were processed

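The authors deposited messenger RNA abundance as CPM in 5 tables, each normalized on its own, and open chromatin as a table of estimated counts for each of a shared set of peaks. The estimated counts deposited by the authors were rounded to whole numbers here. Per the submitters' processing notes, the build was mm10 and the tools included BWA, Bowtie2, MACS2, DESeq2 and Partek 10.0.21.0411; which tool served which step is not given in the sources used here. CPM over all genes listed summed to 950599 to 954161 in macrophage libraries and 472848 to 543838 in T cell libraries. Samples were grouped from the labels.

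CPM values were tested with limma 3.58.1 (R 4.3.3) on log2(CPM + 1) for genes at 1 CPM or more in at least 3 libraries, two-sided, with Benjamini-Hochberg adjustment over all genes tested and calls at an adjusted p below 0.05. Fold changes are on this log2(CPM + 1) scale and understate changes of low genes. The 18 macrophage libraries shared 1 fit, and each T cell table had its own. Peak counts were tested with edgeR 4.0.16 (TMM, quasi-likelihood) and, as an alternative, DESeq2 1.42.0. The test was checked on simulated data. Alternatives were a pseudocount of 0.1, no filter, median-ratio scaling, a replicate block, only the libraries compared, and each library left out in turn. Macrophages also had a block of genotype and replicate, with a correlation of 0.165 within blocks.

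The members and lists were chosen with earlier results of these data known. Genes named with every library's value are Hif1a and up to 6 members called with the largest change per comparison, with a few more shown for their role. Whole-read steps were found for 93.6% to 94.8% of macrophage values within 0.02 read, under the 95% needed for a count test, and for 41.4% to 43.7% in T cells. Same-numbered macrophage libraries deviated together between times in WT cells (correlations of 0.117 to 0.217 from 4 h to 16 h), though the file headers give different mouse numbers by time. In KO cells the correlations were 0.185 to 0.533 between 0 h and 4 h and 0.0566 to 0.518 between 0 h and 16 h. The main fit took libraries of different times as independent. One gene of the HIF list is not reported here for non-pathogenic Th17 cells.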

Additional observations from a re-analysis of the deposited data

Results flagged for a closer look

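In the KO-labelled naive T cells, 2 members of the 29 examined had 1 library apart from the other 3, relative to the range of the values. Chance gives about 1 in 20, so the share is near that of chance. Pfkfb4 was at 3.90 CPM in replicate 2, with the others at 4.09 to 4.11 CPM. Gapdh was at 19.9 CPM in replicate 4, with the others at 35.9 to 37.0 CPM and the WT libraries at 31.2, 29.5 and 20.4 CPM. Reads of Gapdh can be shared with a listed pseudogene.

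In macrophages the KO difference at 16 h of LPS differed from that at 0 h, by limma's test of the difference itself, for 11 members. The log2 values were 1.29 for Aldoc, 1.20 for Slc16a1, 0.86 for Egln1, 0.80 for Pdk1, 0.66 for Hk2, 0.62 for Mxi1, 0.61 for Ero1l, 0.51 for Hif1a, 0.47 for Ldha, 0.36 for Gpi1 and -0.41 for Hk3. In every fit that left out 1 library 5 of the 11 calls held, those of Slc16a1, Egln1, Pdk1, Hk2 and Ero1l.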

How the results depend on the processing

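Scaling by median ratios turned the sign of 22 member values. It turned the fall at 4 h in WT macrophages to 0.26 for Aldoa, 0.12 for Aldoc, 0.020 for Eno1, 0.21 for Gapdh, 0.38 for Higd1a, 0.18 for Ldha, 0.028 for Pfkl, 0.63 for Pgk1, 0.15 for Pkm and 0.14 for Slc16a3, and at 16 h to 0.25 for Bnip3l and 0.040 for Pdk1. In KO macrophages at 4 h it turned Aldoa to 0.32, Aldoc to 0.20, Bnip3 to 0.033, Eno1 to 0.15, Gapdh to 0.30, Higd1a to 0.46, Ldha to 0.31, Ldhb to 0.088, Pfkl to 0.55 and Pkm to 0.14. It left 7 calls for the change in KO effect from 0 h to 16 h, 0 in W250S naive, 2 in pathogenic and 8 in non-pathogenic cells. Without a filter 0 members were called at 0 h, 0 in W250S naive and 1 in non-pathogenic cells. At 0 h the count was also 0 with a pseudocount of 0.1 and with only the libraries compared. The cause was not tested.

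With a replicate block the members called were 7 in KO-labelled naive, 5 in W250S naive, 5 in non-pathogenic and 0 in pathogenic cells, 29 for KO at 16 h, and 33 and 30 for WT LPS at 4 h and 16 h. All same-numbered libraries correlated above 0.1 only in the LPS comparisons within WT and within KO at 4 h. The block moved none of those counts by over 1.5 times. File headers give different mouse numbers by time, so it is uncertain whether the numbers pair libraries. The block of genotype and replicate left all 10 macrophage member counts within 1.5 times. Over all genes it moved the calls for the change in KO effect from 778 to 1543 at 16 h and from 1 to 28 at 4 h.

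Leaving out 1 library gave 0 to 1 members called for KO at 0 h, 6 to 7 at 4 h and 19 to 27 at 16 h. It gave 31 to 32, 27 to 29 and 32 to 33 for WT at 4 h, 16 h and 16 h against 4 h, and 26 to 29 and 29 to 30 for KO at 4 h and 16 h. For the change in KO effect it gave 0 to 1 at 4 h and 6 to 14 at 16 h. In T cells it gave 2 to 6 in KO-labelled naive, 0 to 1 in W250S naive, 0 to 3 in pathogenic, 0 to 6 in non-pathogenic cells, 0 to 1 for their difference and 0 to 5 for open chromatin. Shares of all genes or peaks called in these fits are not given here, so the counts are a description. The Hif1a value of the Th17 difference ran from -0.36 without W250S replicate 2 to 0.0032 without WT replicate 1. The count test on recovered reads was not run. Over all genes, calls for KO at 0 h went from 53 to 32 with scaling, 103 with the block and 1 with only the libraries compared, and at 4 h from 505 to 248 with the last. For the change in KO effect at 16 h they went from 778 to 1191 with the block, in KO-labelled naive cells from 1036 to 1597, in W250S naive cells from 516 to 330 without a filter and 1261 with the block, and in non-pathogenic cells from 905 to 1722 with scaling and 1469 with the block.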
